A study of Mus musculus with 5 samples.

Results

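The IL-12, IL-18 and interferon gamma axis was followed through 10 genes in invariant natural killer T (iNKT) cells, T lymphocytes that recognise lipids on CD1d, sorted from mouse liver. The genes were listed by name, and each matched a single row among the 55364 gene rows of every table. They encode the cytokine (Ifng), its receptor chains (Ifngr1, Ifngr2), the receptor chains for IL-12 (Il12rb1, Il12rb2) and IL-18 (Il18r1, Il18rap), the kinases Tyk2 and Jak2 and the transcription factor Stat4. The 3 hepatocellular carcinoma (HCC) libraries came from male wild-type (WT) C57BL/6 mice given 25 mg/kg diethylnitrosamine (DEN), a liver carcinogen, by 1 intraperitoneal injection at 15 days of age. The 2 healthy libraries came from WT mice given PBS. Livers were taken at 38 to 42 weeks, a range the labels state for both groups. DEN tumours follow from carcinogen injury in young mice and involve no engineered allele, and the labels do not say whether the sorted cells came from tumour or surrounding tissue.

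Interferon gamma is the signature cytokine of the NKT1 type of iNKT cell, which is abundant in mouse liver. IL-12 from antigen-presenting cells binds a receptor of the chains IL-12R beta 1, which carries TYK2, and IL-12R beta 2, which carries JAK2 and recruits STAT4. STAT4 and IL-18, which signals through MyD88, act together on Ifng transcription, and this route can drive interferon gamma from iNKT cells without strong receptor stimulation. Secreted interferon gamma binds IFNGR1 and IFNGR2, which signal through the kinases JAK1 and JAK2.

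Total counts were 1718452 to 2224356 per library. Levels are CPM, counts scaled to 1000000 for each table's own total, and a count of 0 allows 3 counts, or 1.35 to 1.75 CPM. Because the kit reads near the 3' end of each transcript, levels were not divided by gene length. Intervals of single levels are exact (Clopper-Pearson) 95% intervals and cover counting error only, since reads and not distinct molecules were counted. Across genes, healthy 1 had a Pearson r of 0.767 to 0.820 with the other libraries on log2(CPM + 1), whereas pairs without it had 0.848 to 0.903 (genes are not independent replicates). The design text counts 3 HCC and 2 healthy mice, but the table names of HCC 2 and HCC 3 share a number, so whether these are separate mice was taken from the text alone. The T cell genes Cd3e and Trac, which a sorted iNKT population should hold, were present in all libraries, at 178 to 283 and 488 to 803 CPM. Of genes used to check for other immune cells, Ncr1 of NK cells and Flt3 of dendritic cells had no count in any library, the macrophage genes Adgre1 and Clec4f stayed at 2.72 CPM or less, and Ms4a1 of B cells stayed at 3.60 CPM or less. Other members of the same marker lists were present. Klra9 was at 26.2 to 251 CPM in HCC and 27.4 to 122 CPM in healthy libraries. Cst3 was at 85.4 to 135 CPM in HCC and 103 to 123 CPM in healthy libraries. The macrophage gene Lyz2 was at 5.31 to 33.8 CPM in HCC and 0 and 7.68 CPM in healthy 1 and 2. Marco, of the same list, was at 0 CPM in each HCC library and 21.6 and 1.10 CPM in healthy 1 and 2. Ebf1 of the B cell list was at 0 to 2.18 CPM in HCC and 28.8 and 1.10 CPM in healthy 1 and 2. All of these were named after their values were seen. Because these are bulk samples, a lower level cannot be assigned to fewer expressing cells rather than less RNA per cell.

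The promoters of the cytokine gene and of the STAT4-recruiting receptor gene are shown because both hold the palindrome that STAT proteins can bind. RefSeq (GRCm38.p6) gave promoters for 9 of the 10 genes, 12 start sites in all, with no entry for Il12rb1. The 250 bases before the start are printed 5' to 3' on the gene's strand, and capitals mark the match to TTCNNNGAA. The Ifng stretch is chr10:118440796-118441045 on the plus strand, and the Il12rb2 stretch is chr6:67376189-67376438 on the minus strand.
Ifng: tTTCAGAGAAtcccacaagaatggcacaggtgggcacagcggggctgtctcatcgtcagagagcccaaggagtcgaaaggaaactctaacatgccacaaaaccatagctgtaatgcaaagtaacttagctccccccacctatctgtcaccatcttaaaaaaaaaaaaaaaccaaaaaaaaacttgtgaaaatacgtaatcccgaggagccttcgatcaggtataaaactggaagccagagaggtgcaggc
Il12rb2: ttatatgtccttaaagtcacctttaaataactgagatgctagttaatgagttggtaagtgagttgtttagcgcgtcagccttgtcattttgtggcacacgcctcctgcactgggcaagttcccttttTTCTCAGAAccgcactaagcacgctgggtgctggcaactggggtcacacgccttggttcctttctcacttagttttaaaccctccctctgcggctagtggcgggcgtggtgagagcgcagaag

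In Ifng the match lies 249 to 241 bases before the start, and in Il12rb2 it lies 123 to 115 bases before it. Il18r1 also held the palindrome, as TTCTGGGAA and TTCCCAGAA before its start at position 40466006 of chromosome 1, which is downstream of the annotated gene start. The same palindrome, which reads alike on both strands, occurred in 7.02% of 32851 promoter stretches of this length. No stretch of these 9 genes held GGTGTGA, a core of T-box sites, or TGANTCA, a site of AP-1 factors, on either strand. Those letters were found in 3.33% and 6.75% of all stretches. The matches describe the letters in these windows and are not evidence of binding.

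None of the genes of the axis was called between HCC and healthy libraries in the test across all genes, which does not show that their levels were alike. Of the 10, 9 passed the filter on low counts, and 0 were called at an adjusted p under 0.05 in edgeR's quasi-likelihood test with Benjamini-Hochberg adjustment. Among all 8468 genes tested the share called was 0% higher and 0% lower, and no adjusted p was below 0.9998. Without adjustment, 307 of all genes and 0 of the 9 had p under 0.05. Fitted log2 fold changes of the axis were positive in 5 genes and negative in 4, with a median of 0.23, against 0.00 (0.0047) for all genes tested. The 95% intervals of the 9 fold changes all included 0 and together ran from -2.16 to 2.82 on the log2 scale, so changes of several fold in either direction lay within the error for some of these genes.

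**Figure D1:**
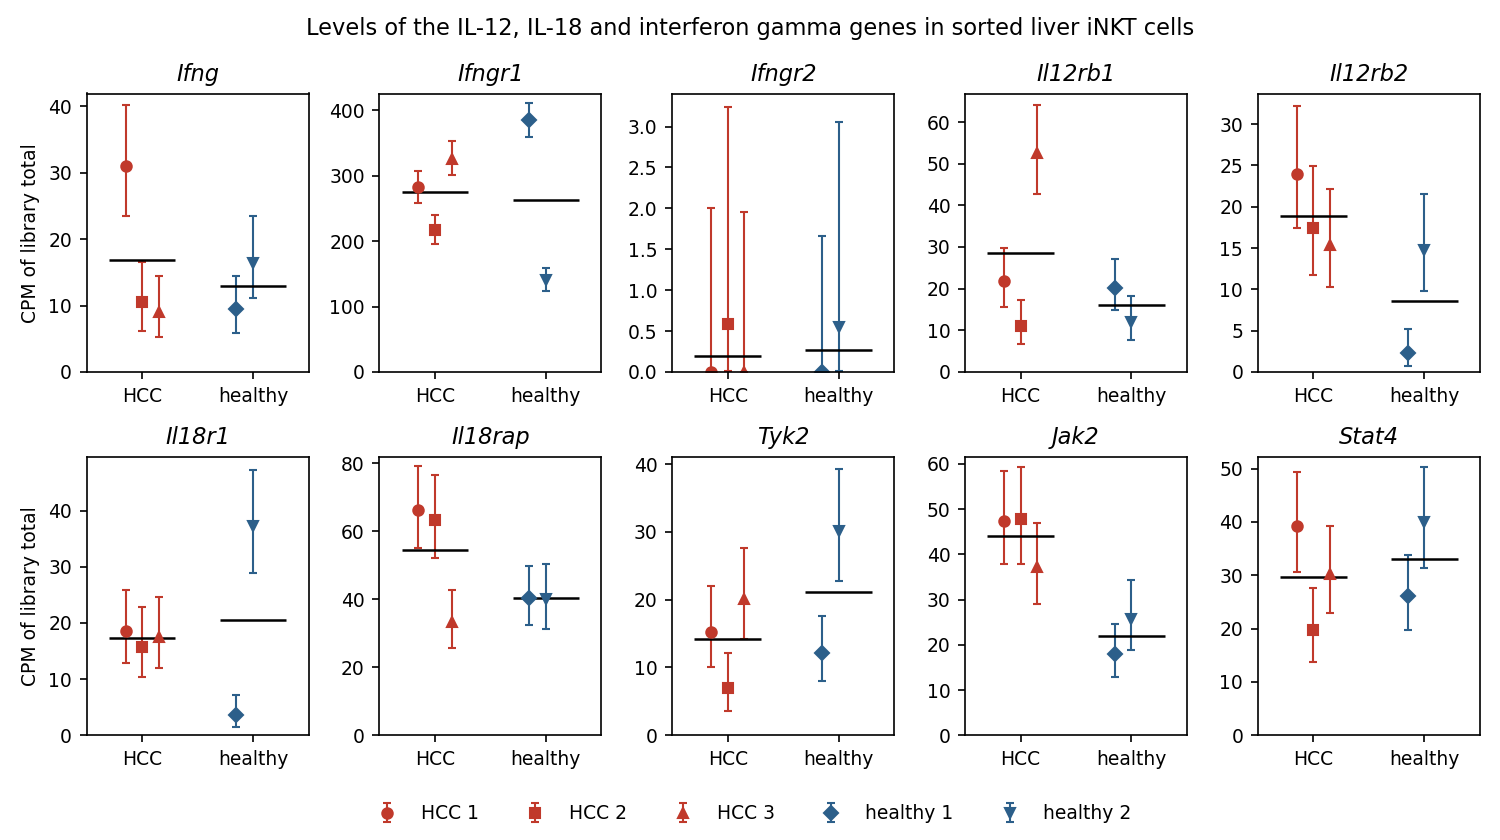
CPM of each gene in each HCC (left, red) and healthy (right, blue) library, with 1 panel per gene and its own linear axis from 0. Bars are exact 95% counting intervals and black lines are group means. Jak2 and Il12rb2 are the panels in which all HCC points lie above both healthy points. Healthy 1 and healthy 2 lie far apart for Il12rb2, as for Ifngr1 and Il18r1.

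Ifng itself (ENSMUSG00000055170, chromosome 10, 118441046 to 118445892, mm10), which encodes the cytokine, was expressed at a low level in both groups. Its row held 57, 18 and 17 counts in HCC 1, 2 and 3, against 21 and 30 counts in healthy 1 and 2. That corresponds to 31.0, 10.5 and 9.02 CPM in the HCC libraries, against 9.44 and 16.5 CPM in the healthy ones. HCC 1 lay above every other library, but its counting interval of 23.5 to 40.2 CPM just met that of healthy 2 (11.1 to 23.5 CPM). HCC 2 fell between the healthy libraries and HCC 3 just below them. The group means were 16.8 ± 12.3 CPM in HCC (SD, n = 3) and 13.0 ± 4.97 CPM in healthy libraries (SD, n = 2). The log2 fold change was 0.24 (SE 0.72, edgeR adjusted p = 0.9998), with a 95% interval of -1.38 to 1.86. Without HCC 1 it was -0.56, so the direction rested on that library. The value was also only 0.02 without healthy 1 and 0.02 with limma-voom, another fit of all 5 libraries. Of the words of 30 bases in the last 300 bases of its transcripts, 24.0% also occur in Gm49751, an annotated locus inside the gene that had 0 counts in every library.

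Among 7070 named genes, those whose pattern over the 5 libraries was most like that of Ifng were Tmem242, Degs1 and Amz2. Their root mean square differences of centred log2(CPM + 1) from Ifng were 0.12, 0.13 and 0.13. As in Ifng, HCC 1 was the highest library in all 3, at 50.6 CPM for Tmem242, 93.6 CPM for Degs1 and 23.9 CPM for Amz2, and healthy 2 the next highest. With 5 libraries such patterns are common, and 475 genes lay within 0.5 of Ifng on the same measure.

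Counts for the interferon gamma receptor lay almost entirely in the row of its ligand-binding chain. Ifngr1 (ENSMUSG00000020009, chromosome 10, 19591949 to 19610229) was at 282, 217 and 325 CPM in HCC 1, 2 and 3, against 384 and 141 CPM in healthy 1 and 2. The healthy libraries were the highest and the lowest of the 5, and the HCC libraries all fell between them. Means were 275 ± 54.5 CPM in HCC (SD, n = 3) and 263 ± 172 CPM in healthy libraries (SD, n = 2), with a log2 fold change of -0.19 (SE 0.50, edgeR adjusted p = 0.9998, 95% interval -1.31 to 0.94). Leaving out healthy 1 gave 0.95 and leaving out healthy 2 gave -0.76, and the sign was also positive with library totals only (0.06).

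Ifngr2 (ENSMUSG00000022965, chromosome 16, 91547072 to 91565623), the accessory chain needed for signalling, had at most 1 count in any library. The row held 0, 1 and 0 counts in HCC 1, 2 and 3, against 0 and 1 counts in healthy 1 and 2, and was not tested. Within the libraries at 0, Ifngr1 held at least 173- and 204-fold more counts in HCC 1 and HCC 3 and at least 285-fold more in healthy 1, taking 3 counts per library as the floor. In HCC 2 the ratio of Ifngr1 to Ifngr2 counts was 373 (95% counting interval 66.5 to 14772), and in healthy 2 it was 257 (45.7 to 10190.0). This difference between the rows was present in both groups. No 30-base word at the annotated 3' ends of Ifngr2 occurs in another gene and no annotated gene overlaps it. Whether the transcripts end within the counted annotation was not tested, so the ratios compare 2 rows of a 3' library and do not show that the chain is absent or that the transcripts are unequal.

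The rows of both IL-12 receptor chains held counts in every library. Il12rb1 (ENSMUSG00000000791, chromosome 8, 70808449 to 70821424), which encodes the chain shared with the IL-23 receptor, was at 21.8, 11.1 and 52.5 CPM in HCC 1, 2 and 3, against 20.2 and 12.1 CPM in healthy 1 and 2. HCC 3 stood above all other libraries, with a counting interval of 42.7 to 64.0 CPM, and HCC 2 was the lowest. The means were 28.5 ± 21.5 CPM in HCC (SD, n = 3) and 16.2 ± 5.77 CPM in healthy libraries (SD, n = 2), with a log2 fold change of 0.62 (SE 0.73, edgeR adjusted p = 0.9998). Without HCC 3 it was -0.21.

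Il12rb2 (ENSMUSG00000018341, chromosome 6, 67291318 to 67376188), whose product recruits STAT4 and whose promoter is printed above, was at 23.9, 17.5 and 15.4 CPM in HCC 1, 2 and 3, against 2.25 and 14.8 CPM in healthy 1 and 2. The lowest HCC library was above the higher healthy library, but HCC 3 and healthy 2 had overlapping counting intervals of 10.3 to 22.1 and 9.77 to 21.6 CPM. Means were 18.9 ± 4.46 CPM in HCC (SD, n = 3) and 8.53 ± 8.89 CPM in healthy libraries (SD, n = 2), a log2 fold change of 1.07 (SE 0.78, edgeR adjusted p = 0.9998, 95% interval -0.67 to 2.82). Without healthy 1, which held 5 counts, the value was 0.33, and without healthy 2 it was 2.76. The row has a further limit. On the genome 1519 of its exonic bases, including all 30-base words at its annotated 3' ends (100%), lie opposite exons of Serbp1, an RNA-binding protein gene on the other strand at 775, 944 and 756 CPM in HCC and 628 and 755 CPM in healthy libraries. The strand setting of the counting was not given in the sources used here, so reads of Il12rb2 and Serbp1 cannot be told apart.

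The IL-18 receptor genes lie next to each other on chromosome 1 but did not follow the same pattern. Il18r1 (ENSMUSG00000026070, 40465552 to 40500854), which encodes the ligand-binding chain, was at 18.5, 15.7 and 17.5 CPM in HCC 1, 2 and 3, against 3.60 and 37.3 CPM in healthy 1 and 2. The HCC libraries were close to each other, within 1.18-fold, and all fell between the healthy libraries. Means were 17.2 ± 1.41 CPM in HCC (SD, n = 3) and 20.5 ± 23.8 CPM in healthy libraries (SD, n = 2), with a log2 fold change of -0.29 (SE 0.78, edgeR adjusted p = 0.9998). It was -1.13 without healthy 1 and 1.96 without healthy 2.

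Il18rap (ENSMUSG00000026068, 40515362 to 40551705), which encodes the signalling accessory chain, was at 66.4, 63.4 and 33.4 CPM in HCC 1, 2 and 3, against 40.5 and 40.1 CPM in healthy 1 and 2. HCC 1 and HCC 2 lay above both healthy libraries and HCC 3 below them. The healthy libraries nearly coincided here, although they were about 10 times apart in Il18r1 (a ratio of healthy 1 to healthy 2 of 1.01 in Il18rap and 0.0964 in Il18r1). Means were 54.4 ± 18.2 CPM in HCC (SD, n = 3) and 40.3 ± 0.277 CPM in healthy libraries (SD, n = 2), and the log2 fold change was 0.23 (SE 0.45, edgeR adjusted p = 0.9998).

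Ratios of paired chains within a library do not depend on library scaling. With 0.5 counts added to both chains, Il12rb2 over Il12rb1 was 1.10, 1.56 and 0.296 in HCC 1, 2 and 3, against 0.121 and 1.22 in healthy 1 and 2. Il18rap over Il18r1 was 3.55, 3.98 and 1.90 in HCC libraries, against 10.6 and 1.07 in healthy libraries. For both ratios the healthy libraries differed more from each other than the HCC libraries did. The mean log2 difference between HCC and healthy libraries was 1.06 for the IL-12 receptor chains (exact permutation p = 0.6, two-sided) and -0.18 for the IL-18 receptor chains (exact permutation p = 1). Of 3 such ratios, including Ifngr2 over Ifngr1, each had an adjusted p of 1, and with 3 against 2 libraries the exact test cannot go below 0.2. The first sign was reversed without healthy 1 (-0.61), and the second without healthy 1 (1.48) or HCC 3 (0.15).

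Jak2 (ENSMUSG00000024789, chromosome 19, 29251828 to 29313080), the kinase carried by IL-12R beta 2 and IFNGR2, showed the clearest separation of the axis. It was at 47.3, 47.7 and 37.2 CPM in HCC 1, 2 and 3, against 18.0 and 25.8 CPM in healthy 1 and 2. The groups did not overlap, and the counting interval of HCC 3 (29.0 to 46.9 CPM) overlapped that of healthy 2 (19.0 to 34.3 CPM). Means were 44.1 ± 5.99 CPM in HCC (SD, n = 3) and 21.9 ± 5.53 CPM in healthy libraries (SD, n = 2). The log2 fold change was 0.84 (SE 0.44, 95% interval -0.15 to 1.83), with an unadjusted p of 0.0864 and an adjusted p of 0.9998 in edgeR, and Jak2 ranked 604 of the 8468 genes by p. Leaving out any library kept it between 0.74 and 1.00.

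Tyk2 (ENSMUSG00000032175, chromosome 9, 21104068 to 21131243), the kinase of IL-12R beta 1, was at 15.2, 6.98 and 20.2 CPM in HCC 1, 2 and 3, against 12.1 and 30.2 CPM in healthy 1 and 2. Healthy 2 was the highest and HCC 2, with 12 counts, the lowest library. Means were 14.1 ± 6.66 CPM in HCC (SD, n = 3) and 21.2 ± 12.8 CPM in healthy libraries (SD, n = 2), and the log2 fold change was -0.67 (SE 0.66, edgeR adjusted p = 0.9998). Without healthy 2 it was -0.04. Of its 30-base words at the 3' end, 10.8% occur in other genes on the same strand.

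Stat4 (ENSMUSG00000062939, chromosome 1, 51987148 to 52107189), the transcription factor activated by IL-12, was at 39.2, 19.8 and 30.3 CPM in HCC 1, 2 and 3, against 26.1 and 40.1 CPM in healthy 1 and 2. The groups overlapped, with HCC 2 the lowest and healthy 2 the highest. Means were 29.7 ± 9.71 CPM in HCC (SD, n = 3) and 33.1 ± 9.90 CPM in healthy libraries (SD, n = 2), with a log2 fold change of -0.30 (SE 0.49, edgeR adjusted p = 0.9998, 95% interval -1.39 to 0.80). It was -0.04 without HCC 2 and -0.08 without healthy 2. On the same strand 1033 exonic bases of Stat4 are shared with Gm28177, which had 5 counts in HCC 2 and 0 in the other libraries. Of the 30-base words at the 3' end of Stat4, 0% occur in another gene.

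**Figure D2:**
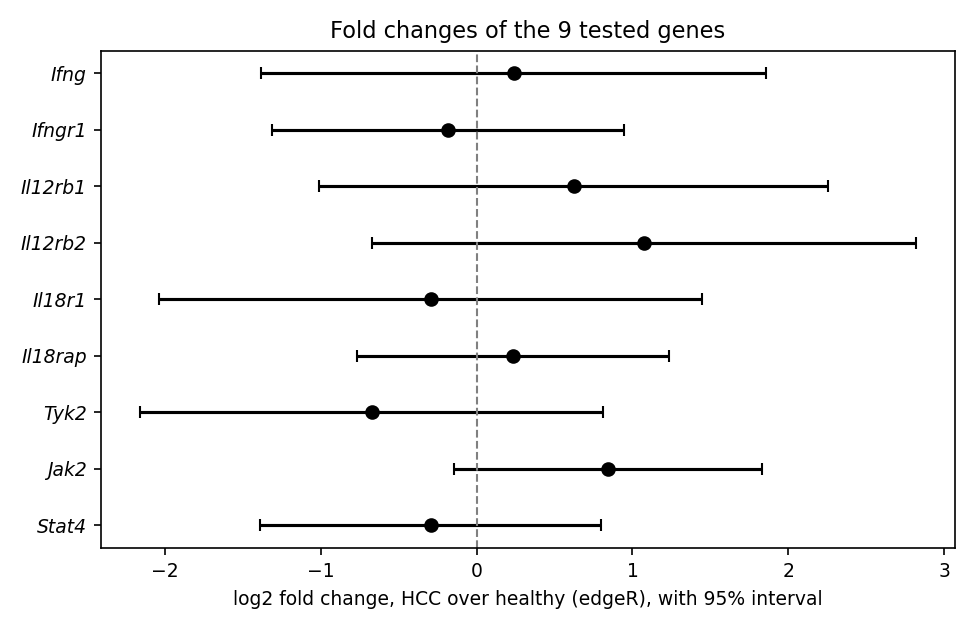
Log2 fold changes of HCC over healthy libraries for the 9 tested genes (points) with 95% intervals (bars) from edgeR. Every interval crosses 0, and that of Jak2, from -0.15 to 1.83, does so by the least.

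Of the 9 tested genes, 2 had all HCC libraries above both healthy libraries (Jak2 and Il12rb2), 0 had all below, and 7 overlapped. Among all genes tested, 12.8% lay above in this way and 5.46% below. With TMM-scaled totals the same 2 genes lay above, and the shares of all genes, computed this way after seeing the data, were 10.6% and 8.42%. So a count of 2 in 9 is not by itself a result about this axis. HCC 1, 2 and 3 were the highest or lowest library for 3, 4 and 3 of the 9 genes, and healthy 1 and 2 for 4 each. By mean CPM over the 5 libraries the order was Ifngr1 (270.0), Il18rap (48.8), Jak2 (35.2), Stat4 (31.1), Il12rb1 (23.5), Il18r1 (18.5), Tyk2 (16.9), Ifng (15.3), Il12rb2 (14.8) and Ifngr2 (0.226). The CPM of the Ifngr1 and Ifngr2 rows did not overlap those of their neighbours, while all other neighbours in this order had overlapping ranges over the libraries. In healthy 1, however, the counting intervals of Ifngr2 (0 to 1.66 CPM) and Il12rb2 (0.73 to 5.25 CPM) overlapped.

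**Figure D3:**
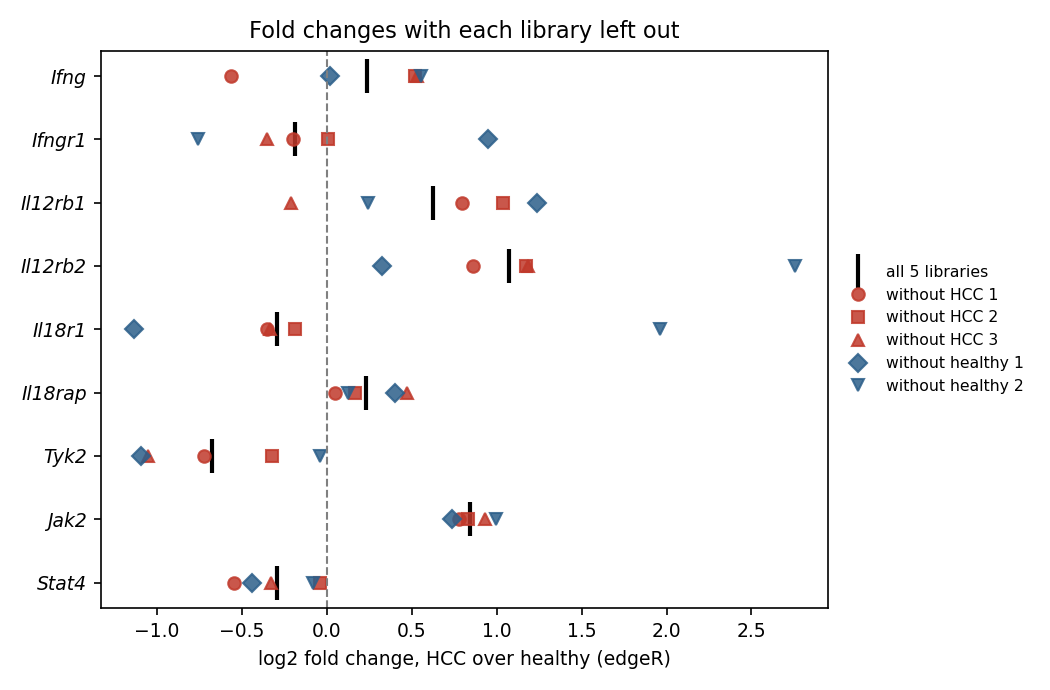
Log2 fold changes of HCC over healthy libraries from edgeR with all 5 libraries (black bar) and with each library left out (symbols, red for HCC and blue for healthy). Jak2 stays between 0.74 and 1.00, whereas Il18r1 runs from -1.13 without healthy 1 to 1.96 without healthy 2.

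The other genes of the route were read from 8 lists of 98 distinct genes, of which 70 were tested. In edgeR 0 of the 70 were called at the adjusted threshold and 4 had an unadjusted p under 0.05, beside 307 of all 8468 genes tested. The groups did not overlap for 15 of the 70 (21.4%) with HCC above and for 4 (5.71%) with HCC below. Among all genes tested the shares were 12.8% and 5.46%. With TMM-scaled totals these shares were 10.6% and 8.42%, and 16 and 4 of the 70 did not overlap. Without healthy 2 edgeR called 5 of these genes, all higher in HCC, beside 102 higher and 94 lower of all 9755 genes tested in that fit, in which healthy 1 alone is taken to vary as the HCC libraries do. These were Gzmb, Irak2, Irf1, Smad3 and Tap2, named after their values were seen, and without healthy 1 none was called, with log2 fold changes of -0.57 for Gzmb, 1.16 for Irak2, 0.76 for Irf1, 0.74 for Smad3 and 0.22 for Tap2. List medians also moved with single libraries: without healthy 1 those of IL-18 receptor signalling and of other receptor chains were -0.01 and -0.07, without HCC 3 that of JAK-STAT partners was -0.07, and without HCC 2 that of Ifng regulators was -0.10.

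The rows of the upstream cytokines held at most 3 counts in any library. Whether their transcripts end within the counted annotation was not tested, so this does not show that they are absent. Il12a and Il12b, the subunits of IL-12, and Il23a, Il27 and Il18 had 0 counts in all 5 libraries, and Ebi3, a subunit of IL-27 and IL-35, had 1.63 CPM in HCC 1 and 0 in the other libraries. Il18bp, the soluble inhibitor of IL-18, was at 1.59 CPM in HCC 3 and 0.549 CPM in healthy 2 and had no count elsewhere. Casp1, the protease that matures IL-18, was at 22.9, 6.40 and 13.3 CPM in HCC 1, 2 and 3, against 9.44 and 3.84 CPM in healthy 1 and 2. Its groups overlapped, and its log2 fold change was 0.85, or 1.86 without healthy 1 and 0.32 without healthy 2.

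Downstream of the IL-18 receptor, 15 of 17 genes were tested, with 0 called in edgeR and a median log2 fold change of 0.22 (0.63 without healthy 2). Myd88, the adaptor of the receptor, was at 54.4, 73.3 and 37.7 CPM in HCC 1, 2 and 3, against 28.8 and 56.0 CPM in healthy 1 and 2, so the groups overlapped. Tab2, an adaptor of the kinase TAK1, was at 46.3, 32.6 and 43.0 CPM in HCC and 46.8 and 51.0 CPM in healthy libraries, below both healthy libraries in each HCC library. The NF-kB gene Nfkb1, chosen after its values were seen, was at 18.0, 43.1 and 13.3 CPM in the HCC libraries, against 3.60 and 6.59 CPM in the healthy ones (log2 fold change 2.09, SE 0.73, edgeR adjusted p = 0.9998).

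Among JAK-STAT partners and brakes, 11 of 14 genes were tested, with 0 called and a median log2 fold change of 0.29. Jak1, the kinase that pairs with JAK2 on the interferon gamma receptor, was at 313, 333 and 338 CPM in HCC 1, 2 and 3, against 111 and 230.0 CPM in healthy 1 and 2. Its groups did not overlap, as for Jak2, with a log2 fold change of 0.81 (SE 0.37, unadjusted p = 0.0546, edgeR adjusted p = 0.9998). Socs2, a feedback inhibitor of cytokine signalling, was at 58.2, 91.4 and 130.0 CPM in HCC and 59.8 and 71.9 CPM in healthy libraries, and its groups overlapped.

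Transcription factors that act on Ifng had 13 of 16 genes tested, 0 called and a median log2 fold change of 0.11 (0.43 without healthy 2). Tbx21, which encodes T-bet, was at 391, 311 and 249 CPM in HCC 1, 2 and 3, against 370.0 and 336 CPM in healthy 1 and 2, with overlap. Irf1, a transcription factor induced by interferon gamma, was at 204, 294 and 160.3 CPM in the HCC libraries, against 36.9 and 125 CPM in the healthy ones. Every HCC library lay above both healthy libraries, and the log2 fold change was 1.32 (SE 0.49, unadjusted p = 0.0226, edgeR adjusted p = 0.9998), or 0.76 without healthy 1.

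Genes induced by IL-12 and IL-18 had 8 of 14 members tested, 0 called and a median log2 fold change of 0.31 (0.56 without healthy 1 and 0.57 without healthy 2). Xcl1, a chemokine that attracts dendritic cells, was at 186, 183 and 158 CPM in HCC 1, 2 and 3, against 75.1 and 106 CPM in healthy 1 and 2 (log2 fold change 0.79, SE 0.35, edgeR adjusted p = 0.9998), with no overlap. Il2rb, a chain of the IL-2 and IL-15 receptors, was at 946, 1238 and 909 CPM in HCC and 649 and 983 CPM in healthy libraries. Genes induced by interferon gamma had 21 of 24 members tested, 0 called and a median of 0.34 (0.15 without healthy 1 and 1.05 without healthy 2), with 14 fitted higher in HCC and 7 lower. Their 2 most abundant members, the immunoproteasome subunits Psmb8 and Psmb10, were fitted lower. The log2 fold changes were -0.14 (SE 0.35) and -0.45 (SE 0.41). Psmb8 was at 393, 267 and 296 CPM in HCC and 286 and 339 CPM in healthy libraries. By CPM its mean was higher in HCC, at 319 against 313 CPM. Psmb10 was at 262, 216 and 282 CPM in HCC and 377 and 216 CPM in healthy libraries. The list of other receptor chains had 4 of 9 members tested, 0 called and a median of 0.40 (1.25 without healthy 2), and in it Il10rb, a chain of the IL-10 receptor, was at 42.4, 76.2 and 45.1 CPM in HCC and 18.0 and 68.6 CPM in healthy libraries. Ifnar2, a chain of the type I interferon receptor, was at 20.1, 36.1 and 21.2 CPM in HCC and 22.5 and 30.2 CPM in healthy libraries.

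**Figure D4:**
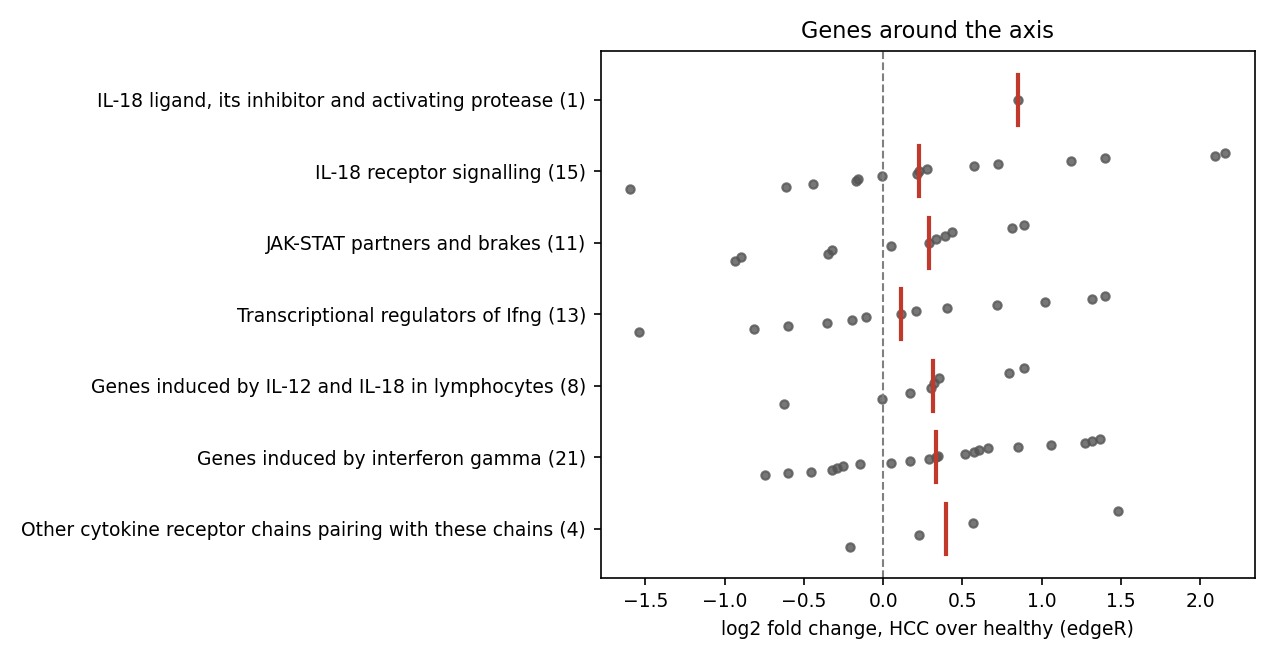
Log2 fold changes of HCC over healthy libraries from edgeR for tested genes around the axis (grey points, 1 per gene) by list, with the number tested in parentheses and the list median in red. The medians lie between 0.11 and 0.85, the highest from 1 tested gene, 4 of the 7 turn negative when 1 library is left out, and none of the points passed the test.

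Markers of red cells and hepatocytes had larger sums in every HCC library. For all 5 tested of 7 erythroid markers every HCC library exceeded both healthy ones, beside 12.8% of all genes tested, although 0 were called. The erythroid list summed to 7391, 17083 and 15385 CPM in HCC 1, 2 and 3, against 2975 and 2787 CPM in healthy 1 and 2, with Slc4a1 at 0 throughout. Hepatocyte markers summed to 62.6, 295 and 628 CPM in the HCC libraries, against 48.6 and 55.4 CPM in the healthy ones. Of these 16 markers 8 were tested, all fitted higher and 0 called, and Apob and Tat were at 0. In 3 of the 8 every HCC library exceeded both healthy ones, beside the same 12.8% of all genes tested. The albumin gene Alb had 7.07, 58.8 and 199 CPM in HCC 1, 2 and 3, against 3.60 and 18.1 CPM in healthy 1 and 2. The part of these red cell and hepatocyte transcripts in the values of Jak2, Il12rb2, Jak1 and Irf1 was not tested. NK cell and ILC1 markers summed to 364, 74.5 and 101 CPM in HCC and 244 and 98.8 CPM in healthy libraries. Macrophage and Kupffer cell markers summed to 31.6, 33.8 and 11.1 CPM in HCC and 48.1 and 8.78 CPM in healthy libraries. Dendritic cell markers summed to 88.2, 140.2 and 87.6 CPM in HCC and 109.7 and 125 CPM in healthy libraries, with 6 of 9 at 0. Neutrophil markers, of which 0 of 8 passed the filter, summed to 8.71, 12.8 and 2.12 CPM in HCC and 0 and 1.10 CPM in healthy libraries. Their sums were thus low, but also larger in every HCC library. B and plasma cell markers summed to 3.27 to 39.6 CPM in HCC and 21.4 to 33.7 CPM in healthy libraries. The T and iNKT markers summed to 4622, 4105 and 5283 CPM in HCC and 3778 and 4703 CPM in healthy libraries.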

How the data were processed

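RNA of iNKT cells, sorted from liver as cells positive for a CD1d tetramer with PBS57 and for T cell receptor beta, was made into 3' mRNA libraries with a QuantSeq kit for Ion Torrent, per the labels' protocols. The authors deposited 1 table per library of whole-number counts by Ensembl gene, not normalized. The submitters' processing notes list the build mm10 and, among tools, HISAT2, Bowtie2, DESeq2, edgeR and limma, with no roles or versions. How reads were assigned to genes, and whether by strand, is not given in the sources used here.

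Gene IDs were matched to GENCODE M21, which named 55104 of 55364 rows. The 260 unnamed rows held 0.763 to 1.08% of counts and pseudogene rows held 31.7 to 38.5%. Genes were filtered with filterByExpr by group, scaled with TMM and tested with the quasi-likelihood test of edgeR 4.0.16 (R 4.3.3), HCC against healthy, without a replicate block, adjusting over the 8468 genes tested. The common dispersion was 0.289. SEs and 95% intervals come from the same fit. TMM brought the median log2 fold change of all genes from 0.16 with library totals only to 0.0047. CPM use library totals without TMM. Alternatives were DESeq2 1.42.0, limma-voom (limma 3.58.1), other scalings and filters, a replicate block, HCC 2 and HCC 3 summed because their table names share a number, and leaving out each library. No 2 libraries agreed within sampling noise (chi-square per degree of freedom of 11.7 to 53.2).

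The genes and lists were chosen with earlier results of these data known. The text names all 10 genes, the 2 most abundant members of each list with none called, the 3 genes closest to Ifng in pattern, and the defining markers of each cell type. It also names some list members with no count in any library, and genes that overlap a gene of the axis. The remaining genes are said to have been named after their values were seen.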

Additional observations from a re-analysis of the deposited data

How the results depend on the processing

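Across 14 alternatives, 0 of the 9 tested genes of the axis were called, and 116 of 126 log2 fold changes kept their sign. Jak2 (0.74 to 1.01), Il12rb2 (0.33 to 2.76), Il18rap (0.05 to 0.47), Tyk2 (-1.09 to -0.04) and Stat4 (-0.54 to -0.04) kept theirs in all 14. Leaving out 1 library at a time, Ifng ran from -0.56 to 0.55, Ifngr1 from -0.76 to 0.95, with 0.00 (0.0046) without HCC 2, Il12rb1 from -0.21 to 1.24 and Il18r1 from -1.13 to 1.96. Ifngr1 was 0.063 with library totals only and 0.037 with limma-voom, and Il18r1 was 0.35 with limma-voom. With the replicate block, Il12rb1 was -0.23 and Il18r1 0.22, and over all genes 3 were called higher. The numbers are shared by 2 pairs only, whose deviations from their group means correlated at -0.0021 and 0.121. With 2 healthy libraries these deviations mirror each other, so the check cannot tell whether samples of the same number are paired. Over all genes, 29 were called higher and 24 lower with no filter, and DESeq2 called 8 higher. Leaving out 1 library gave 0 to 102 higher and 0 to 94 lower, the highest without healthy 2, and 0 to 5 pathway genes. With 1 library left out, genes of the axis whose groups did not overlap numbered 2 to 3 with HCC above and 0 to 3 with HCC below. The 3 below came without healthy 1, where healthy 2 was the only healthy library. Shares of all genes were not computed for these settings, so these counts are not a result about the axis. The HCC minus healthy difference of the mean log2 chain ratio ran from -0.61 to 2.72 for Il12rb2 over Il12rb1 and from -1.83 to 1.48 for Il18rap over Il18r1 (0.15 without HCC 3). For Ifngr2 over Ifngr1 it ran from -1.99 to 1.33 (0.09 without HCC 3), values that the added 0.5 counts and 2 single reads set and that are not interpretable. The cause of these shifts was not tested. With 5 counts, Il12rb2 in healthy 1 had a counting interval of 0.73 to 5.25 CPM.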
